A study of Homo sapiens with 12 samples.

Results

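The levels of 9 genes of the immediate early class were followed in RKO cells, a human colorectal carcinoma line, after 24 h of thymoquinone (TQ), 5-fluorouracil (5-FU) or both. They were ARC, EGR1, EGR3, NR4A1, NR4A2, KLF4, KLF6, IER2 and IER3, taken by name, and genes of the FOS and JUN families were not among them. The list was chosen with earlier results of these data known. Counts of called members beside the share of all genes are therefore a description. A probe set, the group of short probes that reads one transcript on an Affymetrix HG-U133A 2.0 array, counted for a member when its annotation named that gene alone. By this rule 17 of 22215 probe sets belonged to the 9 members, out of 11963 genes with a probe set of their own. Each gene is described by the probe set with the highest mean over the 12 arrays, called leading here, and the others are given beside it. EGR1, KLF4 and the NR4A and KLF6 genes had more than 1, whereas ARC, EGR3, IER2 and IER3 had a single one.

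The 4 groups had 3 arrays each. Control cells received neither drug. The TQ group received 20 µM TQ, a quinone from Nigella sativa seed. The 5-FU group received 10 µg/mL (76.8 µM) 5-FU, a fluoropyrimidine that blocks thymidylate synthase and enters RNA and DNA. The TQ+5-FU group received both agents at these doses and at the same time. The labels call the control cells untreated, while the methods give controls the solvent DMSO, and which of these applied to the arrays is not settled by either. All groups were 1 cell line grown in 1 medium with serum. The labels number the replicates without naming separate cultures, and the methods speak of independent biological replicates, so a p-value covers only the variation seen among the 3 arrays of a group. Values are log2 signals, on which 1 unit is a 2-fold difference.

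Immediate early genes are transcribed within minutes of a growth factor, a stress signal or depolarisation, without new protein synthesis, because their activators are already bound or in the cell. Kinases of the ERK and p38 routes phosphorylate the ternary complex factors, which act with serum response factor (SRF) at CArG boxes, and protein kinase A and other kinases act on CREB at cAMP response elements (CRE). Their mRNAs are short-lived, many carry AU-rich elements, and most members encode transcription factors of the next wave. A sample at 24 h therefore reads a late level and not the first burst.

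ARC, KLF4 and NR4A2 stood higher in TQ+5-FU than in control cells, and EGR3, NR4A1 and IER3 were higher with 5-FU alone. KLF6 was lower with 5-FU, and EGR1 and IER2 passed in no comparison over the 12 arrays. The rise of ARC in TQ+5-FU was 9.78-fold (log2 difference 3.29, standard error 0.37, n = 3 arrays in each group) and that of KLF4 was 3.73-fold (1.90, standard error 0.21). ARC passed in each of the 3 treatments against control, while IER3 passed with 5-FU and with TQ+5-FU. In bulk RNA, a lower level per cell and fewer cells with the transcript cannot be told apart.

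A call here is an adjusted p under 0.05 from limma's moderated test over all 22215 probe sets, with Benjamini-Hochberg adjustment over all of them. In TQ against control 1 of 9 members was called, higher, where 0.267% of the 11963 genes were called. In 5-FU against control 5 members were called, 4 higher and 1 lower, against 7.29% of genes. In TQ+5-FU against control 4 were called, all higher, against 2.63% of genes. The median difference of the members in that comparison was 0.67, beside 0.014 for all genes. It was 0.15 with TQ, where all genes had a median of -0.09, and 0.10 with 5-FU, where all genes had 0.091. These 3 comparisons share the control arrays.

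Between the treated groups, TQ+5-FU against 5-FU gave 2 called members, both higher, where 0.802% of genes were called. TQ+5-FU against TQ gave 1, higher, where 1.15% were called. TQ against 5-FU gave 4, of which 1 was higher and 3 were lower with TQ, and 11.1% of genes were called there. A moderated F test over the 4 groups called 6 members and 8.19% of genes. The deviation from additivity, which is the TQ+5-FU difference minus the sum of the single-drug differences and is called the interaction below, was called for 0 members and for 0.167% of genes by limma. At an unadjusted p under 0.05 it was called for 3 members, EGR3, KLF4 and KLF6, and for 6.3% of genes.

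**Figure D1:**
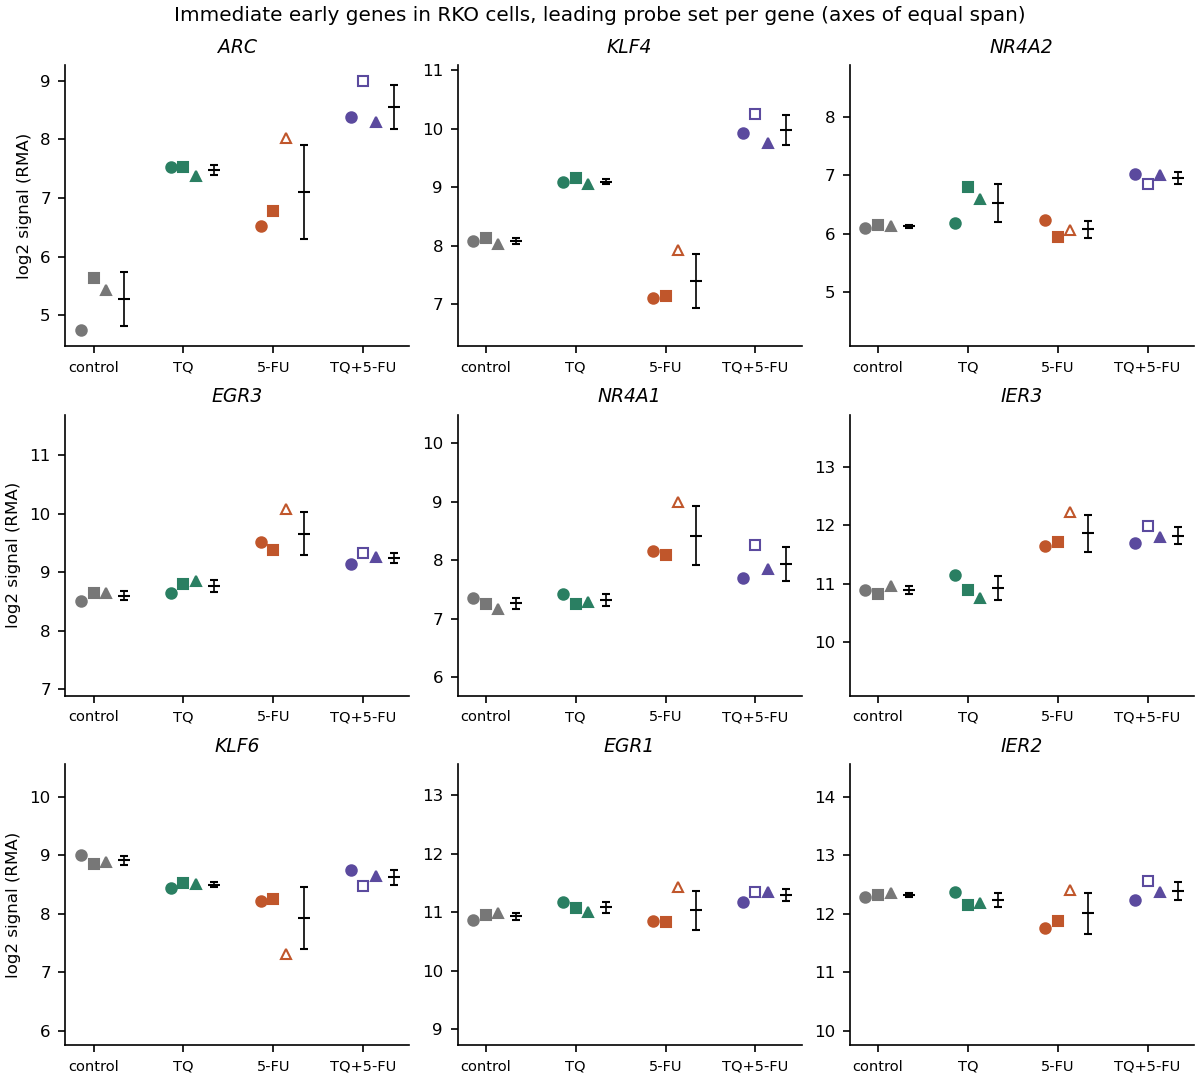
Log2 signal (RMA, vertical axis, each panel spanning the same number of units) of the leading probe set of each member on the 12 arrays, by group. Circles, squares and triangles are replicates 1, 2 and 3, open symbols are 5-FU replicate 3 and TQ+5-FU replicate 2, and the black marks give the mean and SD of 3 arrays. ARC ranges from 4.75 on a control array to 8.99 on a TQ+5-FU array, and 5-FU replicate 3 is the highest or lowest of its group in 8 of the 9 panels and TQ+5-FU replicate 2 in all 9.

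Both arrays marked in that plot stood apart from their groups. The mean correlation with the other arrays of the same group, over all probe sets, was 0.911 for 5-FU replicate 3 and 0.978 for TQ+5-FU replicate 2, and control arrays had 0.997 or more. The array most like 5-FU replicate 3 was TQ+5-FU replicate 2. Array medians of 6.33 and 6.43 were also the lowest of the 12, the highest being 6.55. Among the members, ARC on 5-FU replicate 3 was 1.37 above the mean of its replicates, NR4A1 0.87 and KLF4 0.80 above, and KLF6 was 0.92 below. The difference between 3' and 5' probe sets, a measure of RNA integrity, was 0.0456 to 0.0889 for GAPDH on every array but one, and 0.1315 on TQ+5-FU replicate 2. For ACTB it was 0.577 to 0.602 on the control arrays, 0.573 to 0.669 with TQ, 0.557 to 0.729 with 5-FU, and 0.957, 0.886 and 0.670 with TQ+5-FU. The part of RNA integrity in the results was not tested.

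Left without these 2 arrays, the fit called more of the members and more of all genes. It had 2 arrays in the 5-FU group and 2 in the TQ+5-FU group. Since the arrays left out stood apart from their groups, the spread used by the tests was smaller. The standard error of the KLF4 interaction, for example, went from 0.29 to 0.12. The p-values of this fit describe that smaller spread. TQ against control called 3 members (32.4% of genes), 5-FU against control 7 (28.3%) and TQ+5-FU against control 7 (22.7%). TQ+5-FU against 5-FU called 6 (6.91%), TQ+5-FU against TQ 5 (12.7%) and TQ against 5-FU 7 (30.9%). The interaction was called for 3 (11.1%) and the F test for all 9 (44.9%). With TQ alone the share of members called, 3 of 9, was then near that of all genes. The member median with 5-FU against control turned from 0.10 to -0.047, and that of all genes from 0.091 to -0.0072. For the differences described below, a value without these arrays is given where it changed the call.

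Of 9 markers of colon epithelium, EPCAM and KRT18 lay above the upper quartile of all probe sets, and KRT19, KRT20, CDH1 and VIL1 lay below the lower quartile, by their mean over 12 arrays. Below the lower quartile lay 2 of 5 leukocyte markers (PTPRC and LYZ), 2 of 6 fibroblast markers (COL3A1 and LUM) and 2 of 4 endothelial markers (CDH5 and KDR). The others lay between the quartiles, none above the upper one. ARC is best known from neurons, and of 6 neuron markers read, SYT1, NEFL and STMN2 lay below the lower quartile. The mean level of that list was 4.84 to 5.10 on control arrays, 4.77 to 4.88 with TQ, 5.15 to 5.76 with 5-FU and 5.00 to 5.38 with TQ+5-FU. SYN1, a synaptic vesicle gene of the list, was higher with 5-FU by 1.84 (adjusted p = 0.017). The part of these genes in the results was not tested.

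The proximal promoters of EGR1, KLF4 and KLF6 are printed because these members stood for 3 outcomes over the 12 arrays, no called change, a rise and a fall. RefSeq windows of 250 bases before the start (GRCh38.p14, 5′ to 3′ on the gene's strand) were found for 5 of the 9 members, EGR1, NR4A1, KLF4, KLF6 and IER2, and not for ARC, EGR3, NR4A2 and IER3. Capitals mark CArG boxes, the SRF motif, and the CRE half-site TGACG, each searched on both strands. They were found in 1.16% and 21.2% of 35116 promoter windows.
EGR1 (chr5:138465229-138465478, + strand): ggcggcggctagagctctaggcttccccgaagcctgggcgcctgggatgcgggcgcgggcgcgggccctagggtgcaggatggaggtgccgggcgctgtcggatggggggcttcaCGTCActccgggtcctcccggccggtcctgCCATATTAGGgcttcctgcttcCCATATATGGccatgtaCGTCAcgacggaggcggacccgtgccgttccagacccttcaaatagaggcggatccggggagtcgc
KLF4 (chr9:107489770-107490019, − strand): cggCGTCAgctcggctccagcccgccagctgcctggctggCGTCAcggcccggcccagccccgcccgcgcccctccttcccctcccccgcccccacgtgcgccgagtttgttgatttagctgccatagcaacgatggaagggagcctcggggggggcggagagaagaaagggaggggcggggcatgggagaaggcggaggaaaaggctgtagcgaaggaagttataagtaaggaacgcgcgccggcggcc
KLF6 (chr10:3785210-3785459, − strand): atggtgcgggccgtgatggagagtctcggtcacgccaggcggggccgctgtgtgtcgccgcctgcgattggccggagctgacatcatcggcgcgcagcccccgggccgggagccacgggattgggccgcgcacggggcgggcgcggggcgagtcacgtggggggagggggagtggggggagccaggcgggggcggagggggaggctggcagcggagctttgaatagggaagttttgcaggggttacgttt

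EGR1 held 2 CArG boxes, which began 105 and 83 bases before the start, and 2 half-sites, at 135 and 66 bases. KLF4 held 2 half-sites, at 247 and 210 bases, and no CArG box in this window. KLF6 held neither motif there, nor did NR4A1 in its 2 windows, and IER2 held 1 half-site at 140 bases. The letters GCGNGGGCG, an EGR motif that overlaps neither of the others in these windows and is left in lower case, occurred once in each of the 3 printed promoters and in 8.41% of all windows. The heat shock half-sites GAANNTTC, found in 5.78% of windows, were in none of the 5 members. A match in letters is a description and was not tied to the signals.

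ARC encodes a cytoskeleton-associated protein that regulates AMPA receptors at synapses and forms capsid-like shells. Its log2 signal was 4.75, 5.63 and 5.43 on the control arrays and 7.54, 7.53 and 7.37 on the TQ arrays. With 5-FU it was 6.52, 6.78 and 8.02, and with TQ+5-FU 8.38, 8.99 and 8.30. Every treated array lay above every control array, and every TQ+5-FU array lay above all others in the series. The TQ and 5-FU arrays overlapped, through 5-FU replicate 3.

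TQ raised ARC by 2.21 on the log2 scale (standard error 0.37, adjusted p = 0.0497), a call at the edge of the threshold. It was lost without 10 of the 12 arrays in turn, where the adjusted p reached 0.25 with differences from 1.95 to 2.39. Without both displaced arrays the adjusted p was 9.7e-05. The 5-FU difference was 1.84 (adjusted p = 0.014) and became 1.38 without the displaced arrays (adjusted p = 5.9e-04). Without control replicate 1, the lowest ARC value in the series, that call was lost (adjusted p = 0.074). For TQ+5-FU the difference was 3.29 with a 95% confidence interval of 2.47 to 4.11 (adjusted p = 0.0014), and this call held without each array in turn.

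In the order of the ARC levels, control stood lowest with a mean of 5.27 (SD 0.46), then 5-FU with 7.11 (SD 0.80), TQ with 7.48 (SD 0.091) and TQ+5-FU with 8.56 (SD 0.38). Control and 5-FU differed beyond their spread. The neighbours 5-FU and TQ did not pass, at a difference of 0.37 (95% confidence interval -0.45 to 1.20, adjusted p = 0.46). TQ and TQ+5-FU were 1.08 apart (0.26 to 1.90, adjusted p = 0.25), and 5-FU and TQ+5-FU 1.45 apart (0.63 to 2.27, adjusted p = 0.14). Without the displaced arrays these 3 differences were 0.83, 0.86 and 1.69, with adjusted p = 0.012, 0.023 and 0.0019.

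Among the 11954 other genes, the 5 with the highest Pearson correlation with ARC over the 12 arrays were FOS (r = 0.980), HES1 (0.979), PLA2G4C (0.976), AKAP17A (0.976) and ADM (0.974). These points share 4 groups of 3 arrays and both displaced arrays, and the coefficients are a description. Since these genes were picked for following ARC on the same arrays, their group order and their rise in TQ+5-FU are set by the choice and are no separate support. FOS, a subunit of AP-1, differed from control by 1.97 with TQ, 1.96 with 5-FU and 2.93 with TQ+5-FU. HES1, a repressor downstream of Notch, differed by 1.84 with TQ+5-FU (adjusted p = 0.0037). Its differences of 1.03 with TQ and 0.93 with 5-FU did not pass (adjusted p = 0.15 and 0.052). Without the displaced arrays they did, at 1.03 and 0.64 (adjusted p = 3.6e-04 and 0.0037). ADM, the adrenomedullin gene, differed by 1.47 with TQ+5-FU. AKAP17A, a splicing-related anchor protein gene, had a smaller difference of 0.54 with TQ+5-FU.

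**Figure D2:**
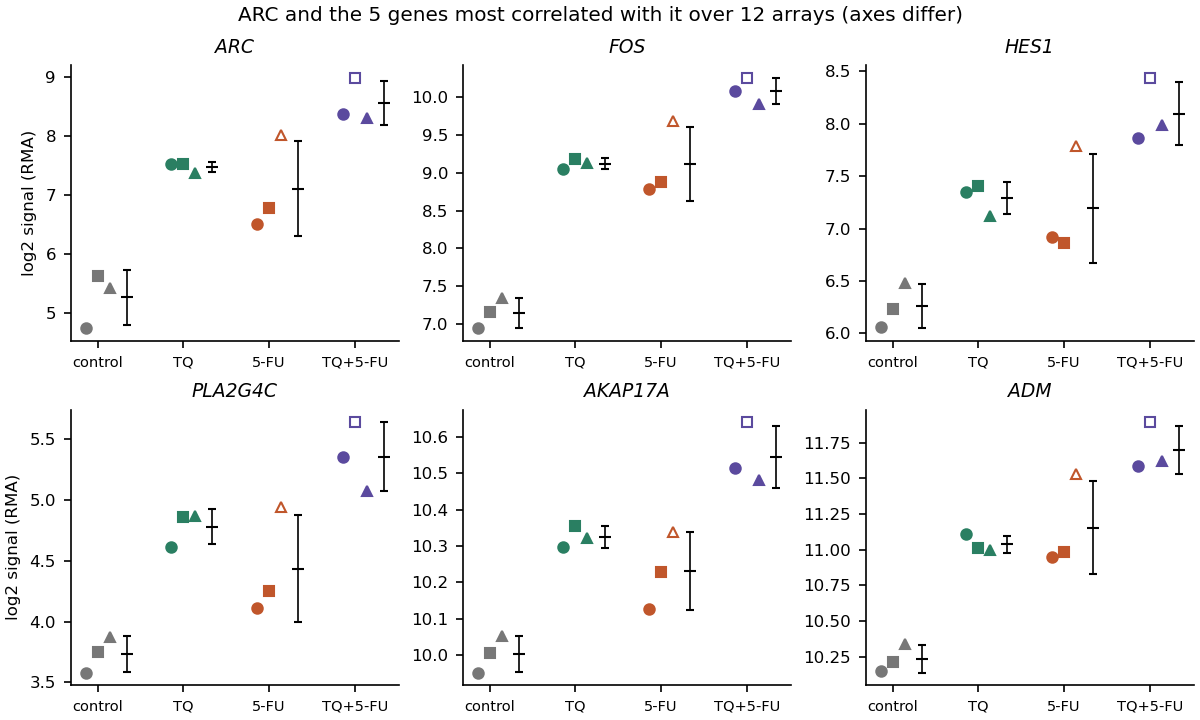
Log2 signal (RMA, vertical axes differ between panels) of ARC and of the 5 genes most correlated with it, by group, with the symbols of the plot of members by array and the mean and SD of 3 arrays in black. In each panel the control arrays are lowest and the TQ+5-FU arrays highest, over a range of 4.75 to 8.99 for ARC and 9.95 to 10.6 for AKAP17A.

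Of the other members, EGR1 had the highest correlation with ARC over the 12 arrays (r = 0.79), then KLF4 and NR4A2 (both 0.68), IER3 (0.64), EGR3 (0.55) and NR4A1 (0.49). IER2 had 0.28 and KLF6 had -0.43. Without the displaced arrays the order turned, with NR4A2 first at 0.77, then EGR1 at 0.74 and KLF4 at 0.70. IER3 then had 0.51, EGR3 0.48, NR4A1 0.31, IER2 0.0097 and KLF6 -0.44.

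EGR1 and EGR3 encode zinc finger transcription factors that bind GC-rich elements, EGR1 being a classic serum and stress response gene. EGR1 log2 signals were 10.86, 10.95 and 10.99 in control cells and 11.18, 11.08 and 10.999 with TQ. They were 10.85, 10.84 and 11.43 with 5-FU and 11.17, 11.36 and 11.35 with TQ+5-FU. All TQ+5-FU arrays lay above all control arrays, by a mean of 0.36 (95% confidence interval 0.013 to 0.71, adjusted p = 0.42). The difference was 0.15 with TQ (-0.19 to 0.50) and 0.10 with 5-FU (-0.24 to 0.45). The second EGR1 probe set gave 0.78 in TQ+5-FU (adjusted p = 0.23). Both passed in TQ+5-FU without the displaced arrays, at 0.33 (adjusted p = 0.024) for the leading one and 0.64 (adjusted p = 0.0044) for the second. The leading one also passed against 5-FU, at 0.42 (adjusted p = 0.031), and its 5-FU difference turned to -0.091 (adjusted p = 0.54).

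EGR3 moved with 5-FU. Its signals were 8.51, 8.65 and 8.65 in control cells and 8.65, 8.81 and 8.85 with TQ. They were 9.52, 9.39 and 10.08 with 5-FU and 9.15, 9.33 and 9.26 with TQ+5-FU. The 5-FU arrays were the highest 3 of the series, and the TQ+5-FU arrays lay between them and the TQ arrays with no overlap. 5-FU raised EGR3 2.08-fold (log2 difference 1.06, standard error 0.17, adjusted p = 0.0038), a call that held without each array in turn. It was lost when limma was run on the control and 5-FU arrays alone (adjusted p = 0.11) and in the methods' t-test after Benjamini-Hochberg (adjusted p = 0.18). TQ against 5-FU was -0.89 (adjusted p = 0.0091). The TQ+5-FU difference of 0.64 did not pass (adjusted p = 0.082), though it did without the displaced arrays, at 0.60 (adjusted p = 0.0013). From TQ to TQ+5-FU the step was 0.48 (adjusted p = 0.26, and 0.015 without the displaced arrays), and from TQ+5-FU to 5-FU it was 0.42 (adjusted p = 0.44).

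NR4A1 and NR4A2 encode orphan nuclear receptors, known as Nur77 and Nurr1, of which NR4A1 has also been studied in cell death. NR4A1 was read by its leading probe set at 7.35, 7.26 and 7.17 in control cells and 7.43, 7.24 and 7.28 with TQ. With 5-FU it read 8.16, 8.09 and 8.999, and with TQ+5-FU 7.69, 8.26 and 7.85. Control and TQ arrays overlapped, and all arrays with 5-FU, alone or combined, lay above them. The 5-FU difference was 1.16 (2.23-fold, adjusted p = 0.013), with 0.87 left without the displaced arrays (adjusted p = 7.9e-05). The call was lost when any one control array was left out (highest adjusted p = 0.060). TQ against 5-FU was -1.10 (adjusted p = 0.016), which did not pass without TQ replicate 2 or 3 (highest adjusted p = 0.071) or with Tukey's test (adjusted p = 0.054). TQ+5-FU against control was 0.67 (adjusted p = 0.22) and against TQ 0.61 (adjusted p = 0.31). Both passed without the displaced arrays, at 0.51 (adjusted p = 0.0035) and 0.45 (adjusted p = 0.013).

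The 3 NR4A1 probe sets did not read alike. The leading one and a second are of a type that can also bind other transcripts, related or not, and the second rose by 0.76 with 5-FU (adjusted p = 0.036). The third gave 0.22 with 5-FU (standard error 0.24, adjusted p = 0.64) and passed in no comparison. Which of them tracks the NR4A1 transcript best was not tested.

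NR4A2 passed in other comparisons than NR4A1. Signals were 6.10, 6.15 and 6.13 in control cells and 6.18, 6.80 and 6.59 with TQ. They were 6.22, 5.94 and 6.06 with 5-FU and 7.02, 6.84 and 6.99 with TQ+5-FU. The 5-FU arrays overlapped the control arrays, and the TQ+5-FU arrays lay above all others. TQ+5-FU was higher than control by 0.82 (1.77-fold, adjusted p = 0.020) and higher than 5-FU by 0.88 (adjusted p = 0.032). TQ alone gave 0.40 (95% confidence interval 0.055 to 0.74, adjusted p = 0.42), and TQ+5-FU against TQ gave 0.43 (adjusted p = 0.28). The leading probe set is of the type that can also bind other transcripts, as for NR4A1. All 3 probe sets passed in TQ+5-FU against control, at 0.74 and 0.99 for the other 2 (adjusted p = 0.028 and 0.0035). Against 5-FU the other 2 gave 0.56 (adjusted p = 0.15, and 0.0041 without the displaced arrays) and 0.82 (adjusted p = 0.024). The leading probe set lost the call against control when any one control or TQ+5-FU array was left out (highest adjusted p = 0.11), with differences of 0.79 to 0.88. It also lost it with the replicate block (adjusted p = 0.064). The call against 5-FU held in 3 of 12 fits that left out 1 array (highest adjusted p = 0.15) and in 7 of 13 other alternatives. With TQ alone the other two probe sets passed without the displaced arrays, at 0.43 and 0.66 (adjusted p = 0.0043 and 0.0020), and the leading one did not (adjusted p = 0.052).

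KLF4 and KLF6 encode Krüppel-like zinc finger factors, KLF4 being a marker of differentiated gut epithelium and a reprogramming factor. KLF4 had the widest spread of group means after ARC. Its signals were 8.09, 8.14 and 8.02 in control cells and 9.09, 9.15 and 9.06 with TQ. They were 7.11, 7.15 and 7.93 with 5-FU and 9.92, 10.26 and 9.76 with TQ+5-FU. No 2 groups overlapped, 5-FU being lowest, then control, TQ and TQ+5-FU.

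TQ+5-FU exceeded control by 1.90 (95% confidence interval 1.44 to 2.36, adjusted p = 0.0012) and exceeded 5-FU by 2.58 (adjusted p = 7.8e-04). TQ exceeded 5-FU by 1.70 (adjusted p = 0.0010). These 3 calls held without each array in turn, while that against 5-FU was lost when limma was run on those groups alone, and both comparisons with 5-FU in the methods' t-test after Benjamini-Hochberg. The neighbours in the order did not pass with 12 arrays, TQ against control giving 1.02 (adjusted p = 0.084), 5-FU against control -0.69 (adjusted p = 0.088) and TQ+5-FU against TQ 0.88 (adjusted p = 0.088). All 3 passed without the displaced arrays, at 1.02 (adjusted p = 4.5e-05), -0.95 (adjusted p = 1.9e-05) and 0.74 (adjusted p = 6.2e-04). The second KLF4 probe set gave 1.88 for TQ+5-FU (adjusted p = 0.0047) and -0.083 for 5-FU (adjusted p = 0.87).

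KLF6, known as a tumour suppressor candidate and a stress-induced factor, was lowest with 5-FU. Signals were 8.999, 8.86 and 8.88 in control cells and 8.45, 8.53 and 8.51 with TQ. They were 8.21, 8.26 and 7.31 with 5-FU and 8.74, 8.48 and 8.65 with TQ+5-FU. All treated arrays lay below all control arrays, and all TQ+5-FU arrays lay above all 5-FU arrays. 5-FU lowered KLF6, which fell by 0.98 on the log2 scale (standard error 0.22, adjusted p = 0.021), and without the displaced arrays it fell by 0.68 (adjusted p = 1.4e-04). Leaving out any one control array ended the call (highest adjusted p = 0.098). TQ gave -0.42 (adjusted p = 0.61) and TQ+5-FU gave -0.29 (adjusted p = 0.89). The TQ difference passed without the displaced arrays (adjusted p = 0.0020), as did TQ+5-FU against 5-FU at 0.46 (adjusted p = 0.013). A second probe set fell by 0.80 with 5-FU (adjusted p = 0.017), and the third gave -0.023 (adjusted p = 0.94). With TQ the second gave -0.43, which passed only without the displaced arrays (adjusted p = 0.0052).

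IER2 and IER3 share the name immediate early response but encode unrelated proteins, IER2 a nuclear regulator and IER3 (IEX-1) a stress-induced modulator of apoptosis and NF-κB signalling. IER3 signals were 10.89, 10.82 and 10.96 in control cells and 11.15, 10.89 and 10.75 with TQ. They were 11.65, 11.72 and 12.23 with 5-FU and 11.70, 11.98 and 11.80 with TQ+5-FU. The 6 arrays with 5-FU lay above the 6 without it, and within each set the groups overlapped. 5-FU raised IER3 1.96-fold (0.97, adjusted p = 0.0065) and TQ+5-FU raised it 1.91-fold (0.93, adjusted p = 0.017). TQ+5-FU exceeded TQ by 0.89 (adjusted p = 0.038), and TQ against 5-FU was -0.93 (adjusted p = 0.0076). TQ+5-FU and 5-FU differed by -0.039 (95% confidence interval -0.41 to 0.33), and TQ and control by 0.040 (-0.33 to 0.41). The 5-FU call held without each array in turn but not when limma was run on those groups alone, the TQ+5-FU call was lost when any one control array or TQ+5-FU replicate 2 or 3 was left out (highest adjusted p = 0.092), and the call against TQ was lost without 10 of the 12 arrays.

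IER2 read 12.28, 12.31 and 12.35 in control cells and 12.38, 12.15 and 12.17 with TQ. It read 11.75, 11.87 and 12.40 with 5-FU and 12.24, 12.56 and 12.36 with TQ+5-FU. The 4 groups overlapped, 2 of the 5-FU arrays being the lowest of the series and the third, 5-FU replicate 3, lying among the highest. The 5-FU difference was -0.31 (95% confidence interval -0.68 to 0.060, adjusted p = 0.37), and without the displaced arrays it was -0.50 (adjusted p = 0.0022). TQ+5-FU against 5-FU, at 0.38 (adjusted p = 0.50), was then 0.49 (adjusted p = 0.018).

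**Figure D3:**
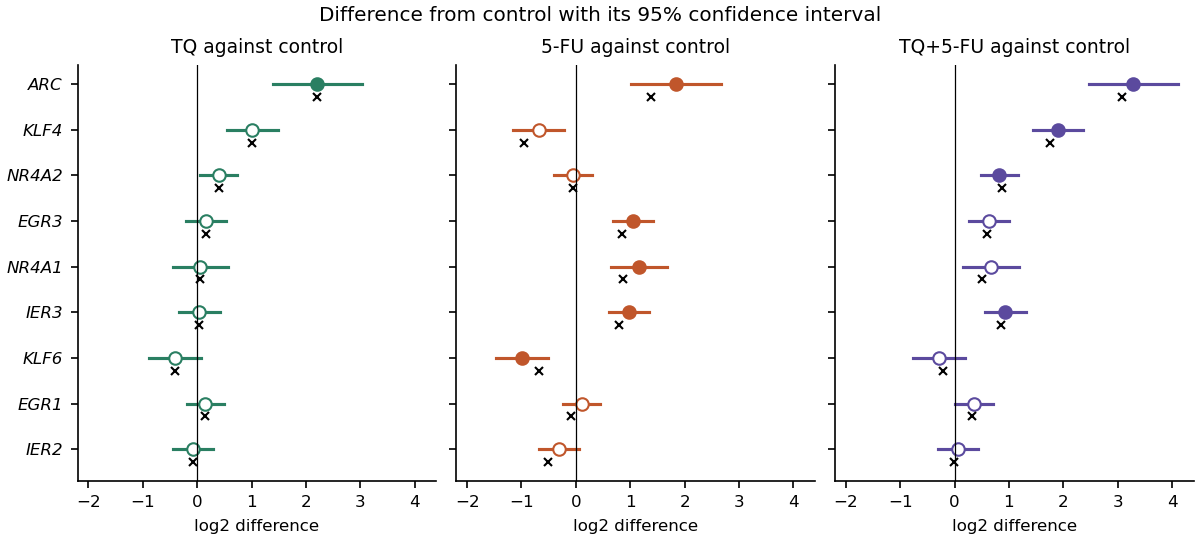
Log2 difference from control (horizontal axis) of the leading probe set of each member (rows) with TQ, 5-FU and TQ+5-FU, circles with 95% confidence intervals over 12 arrays, filled where the adjusted p was under 0.05. Crosses give the difference without 5-FU replicate 3 and TQ+5-FU replicate 2, as for ARC with 5-FU, 1.38 in place of 1.84.

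The combined treatment was set against the sum of the single drugs for each member. KLF4 had a sum of 0.33 and a measured TQ+5-FU difference of 1.90, so that the interaction was 1.57 (standard error 0.29, adjusted p = 0.099). KLF6 had a sum of -1.40 and a measured -0.29, an interaction of 1.11 (adjusted p = 0.32). EGR3 went the other way, with a sum of 1.22 and a measured 0.64, an interaction of -0.58 (adjusted p = 0.71). ARC, with a sum of 4.05 and a measured 3.29, gave -0.76 (standard error 0.52, adjusted p = 1.00). The remaining interactions were 0.48 for NR4A2, 0.46 for IER2, 0.10 for EGR1, -0.079 for IER3 and -0.54 for NR4A1.

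Without the displaced arrays the interaction passed for KLF4 at 1.70 (adjusted p = 2.4e-04), for KLF6 at 0.88 (adjusted p = 0.0027) and for IER2 at 0.57 (adjusted p = 0.024). In each of these genes the 5-FU difference was below 0, and TQ+5-FU stood above 5-FU. For EGR3 it was then -0.41 (adjusted p = 0.073) and for NR4A1 -0.42 (adjusted p = 0.075).

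**Figure D4:**
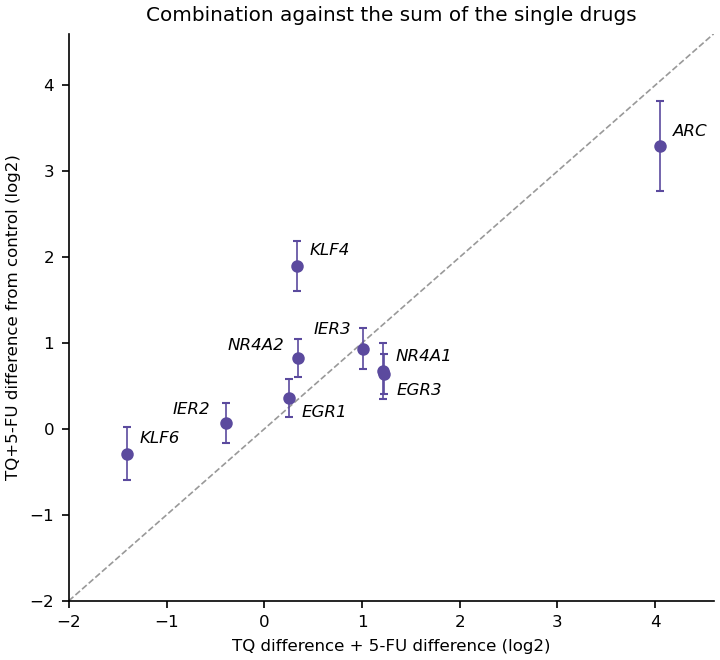
TQ+5-FU difference from control (vertical axis, log2) against the sum of the TQ and 5-FU differences (horizontal axis, log2) for the 9 members over 12 arrays. Bars are the standard error of the interaction and the dashed line marks equality, above which KLF4 lies by 1.57 and below which ARC lies by 0.76.

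Other genes of the immediate early class were read from a list of 28, of which 25 had a probe set of their own. TQ called 2 of them, both higher, MAFF (0.90, adjusted p = 0.035) and ATF3 (0.80, adjusted p = 0.0497). 5-FU called 10 higher and 2 lower, and TQ+5-FU 9 higher and 1 lower. Of all genes, 0.267%, 7.29% and 2.63% were called with TQ, 5-FU and TQ+5-FU. The median difference over the list was 0.051 with TQ, 0.50 with 5-FU and 0.64 with TQ+5-FU. For all genes these medians were -0.09, 0.091 and 0.014. On the 10 arrays left without the displaced ones, TQ called 9 higher and 5 lower, 5-FU 14 and 5, and TQ+5-FU 16 and 5. The shares of all genes called were then 32.4%, 28.3% and 22.7%. ATF3, a stress-induced repressor of the ATF/CREB family, rose by 2.92 with 5-FU (adjusted p = 2.9e-06) and by 2.57 with TQ+5-FU. PLK2 and PLK3, polo-like kinases induced by stress, rose by 2.90 and 2.81 with 5-FU (adjusted p = 0.026 and 1.6e-04). TNFAIP3, an NF-κB feedback inhibitor, rose by 1.91 with 5-FU (adjusted p = 1.2e-05). CCN2, a matricellular gene, rose by 1.71 with TQ+5-FU (adjusted p = 2.9e-05), and PLK3 by 1.58 and IER5 by 1.49. MYC fell by 0.96 with 5-FU (adjusted p = 0.0012) and CCN1 by 0.42 (adjusted p = 0.031), and CCN1 fell by 0.45 with TQ+5-FU.

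The genes upstream were read less completely. Of 21 genes of the ERK and SRF route 15 had a probe set of their own, and limma called 2 with 5-FU, HRAS at 0.94 (adjusted p = 0.027) and RPS6KA1, a ribosomal S6 kinase gene, at 0.85 (adjusted p = 0.030). It called 0 of the 15 with TQ and 0 with TQ+5-FU, where 1 and 0 had an unadjusted p under 0.05. On the 10 arrays left without the displaced ones, TQ called 3 higher and 3 lower, 5-FU 2 and 1, and TQ+5-FU 0 and 1. Of 10 genes of the CREB route 8 were read, and PRKACA, a catalytic subunit of protein kinase A, was higher with 5-FU by 0.77 (adjusted p = 0.042). The counts were 0 with TQ and 0 with TQ+5-FU, with 1 and 2 at an unadjusted p under 0.05, and on the 10 arrays left without the displaced ones, TQ called 2 higher and 2 lower, 5-FU 3 and 2, and TQ+5-FU 2 and 1. SRF itself read -0.24 with TQ, -0.034 with 5-FU and -0.095 with TQ+5-FU. These arrays measure mRNA, and phosphorylation of the proteins was not measured.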

How the data were processed

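RNA of 12 RKO samples was hybridised to Affymetrix HG-U133A 2.0 arrays. The authors deposited log2 values after robust multi-array averaging (RMA), credited to Affymetrix Expression Console in the submitters' processing notes. RMA scales arrays together, so absolute RNA content is not kept, and depth has no meaning here, since the number of arrays limits the precision. The table holds 22277 probe sets, of which 62 controls were left out. Genes came from the platform's annotation, 19064 probe sets naming 1 gene, 1043 several and 2108 none.

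The deposited log2 values were fitted with limma 3.58.1 in R 4.3.3, 1 mean per group over 12 arrays with 1 shared spread, moderated tests and Benjamini-Hochberg adjustment over 22215 probe sets. An exact test of 3 arrays against 3 could not go below p = 0.1. Scripts were tested on simulated data. Alternatives were the study's t-test, ANOVA with Tukey's test and fold threshold of 2, another scaling, filter, weighting, variance prior or probe set rule, a replicate block, and leaving out arrays. Named were all members, up to 4 called genes of each list per comparison with control or, where none was called, its first gene, and the 5 genes most like ARC. SYN1, SRF and KLF10 were named after their values were seen. The members and lists were chosen with earlier results of these data known. Figures were drawn with matplotlib 3.10.9 in Python 3.11.15.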

Additional observations from a re-analysis of the deposited data

Results flagged for a closer look

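For 3 members, by the leading probe set, the arrays of one drug comparison all moved one way alone and the other way in the presence of the second drug. How many of all genes met the same rule was not counted, so the 3 have no reference. KLF4 was lower on every 5-FU array than on every control array, and higher on every TQ+5-FU array than on every TQ array. The test of that difference, the interaction, gave 1.57 (adjusted p = 0.099) over 12 arrays. KLF6 was lower with TQ than in control cells and higher with TQ+5-FU than with 5-FU, again without overlap, and its interaction was 1.11 (adjusted p = 0.32). EGR3 was higher with TQ than in control cells by 0.16 (adjusted p = 0.79), and the nearest arrays of these groups read 8.653 and 8.651. It was lower with TQ+5-FU than with 5-FU, at -0.42 (adjusted p = 0.44), and its interaction was -0.58 (adjusted p = 0.71). All 3 interactions missed the threshold with 12 arrays, and without the 2 displaced arrays those of KLF4 and KLF6 passed, as given above. On the second KLF4 probe set the 5-FU and control arrays overlapped, through 5-FU replicate 3. Its interaction was 1.07 (adjusted p = 0.56), and 1.32 without the displaced arrays (adjusted p = 0.0073). The second KLF6 probe set kept the pattern, at 0.97 (adjusted p = 0.23), and at 0.92 without the displaced arrays (adjusted p = 0.0054). On the third KLF6 probe set the TQ+5-FU and 5-FU arrays overlapped, with an interaction of -0.077.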

How the results depend on the processing

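The rises of ARC and KLF4 in TQ+5-FU against control kept their direction and their call in all 12 fits that left out 1 array and in all 13 other alternatives. No value of the 17 called member results changed sign. The call of ARC with TQ was lost with the replicate block, quantile normalization, centred array medians and a trended variance prior. Of the 17 calls, 11 were lost when limma was run on only the groups compared and 12 in the methods' t-test after Benjamini-Hochberg. Each group had only 3 arrays, which limits the precision, and the cause of the shifts below was not tested.

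Leaving out 1 array at a time, the number of members called ranged from 0 to 3 in TQ against control, 2 to 7 in 5-FU against control and 2 to 7 in TQ+5-FU against control. It ranged from 1 to 5 in TQ+5-FU against 5-FU, 0 to 5 in TQ+5-FU against TQ, 3 to 5 in TQ against 5-FU, 0 to 2 for the interaction and 4 to 9 for the F test. The share of all genes called was not counted in these fits, so the ranges have no reference. Without both displaced arrays that share rose from 8.19% to 44.9% for the F test. The highest counts came without 5-FU replicate 3, except that the 5 in TQ against 5-FU also came without TQ replicate 1. In 5-FU against control the count was 2 without control replicate 1 and 3 without control replicate 2 or 3. In TQ+5-FU against control it was 2 without any one control array or without TQ+5-FU replicate 2 or 3.

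Same-numbered arrays of different groups did not deviate together, the correlation of their deviations lying between -0.84 and 0.86 and over 0.1 in 6 of 18 pairs, so the numbers were not taken as pairs. With the replicate block, 0 members were called in TQ against control, 2 in TQ+5-FU against control, 1 in TQ+5-FU against 5-FU, 0 in TQ+5-FU against TQ and 4 by the F test, and the other counts did not move. Genes called over those 5 comparisons made up 0.0418% to 4.88% of all genes.

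Fits on only the groups compared called 3 members in TQ against control, 0 in 5-FU against control, 0 in TQ+5-FU against 5-FU, 0 in TQ+5-FU against TQ and 1 in TQ against 5-FU, where 30.9%, 0.861%, 0%, 0.702% and 1.03% of all genes were called. Quantile normalization called 0 with TQ and 0 in TQ+5-FU against TQ, with 0.334% and 0.928% of genes. Centred array medians called 0, 1 and 0 in TQ against control, TQ+5-FU against 5-FU and TQ+5-FU against TQ, and the trended prior called 0 in the first and 1 in the second of these, with at most 0.685% of genes called in each. Array weights, for which the fit stopped short of its convergence tolerance, called 5 in TQ against control, 8 in TQ+5-FU against control, 8 in TQ+5-FU against 5-FU, 9 in TQ+5-FU against TQ, 9 in TQ against 5-FU and 8 for the interaction, and in these 6 it called 52.8% to 62.4% of all genes. The methods' t-test at their unadjusted threshold called 3 with TQ, 8 with TQ+5-FU and 5 in TQ+5-FU against TQ, with 37.2%, 16.8% and 16.3% of genes. After Benjamini-Hochberg it called 3 with TQ and 0 in each of 5-FU against control, TQ+5-FU against 5-FU, TQ+5-FU against TQ and TQ against 5-FU, with 17.5% of genes in the first and at most 1.41% in the others. The methods' ANOVA with Tukey's test called 2 with TQ, 3 with 5-FU and 2 in TQ+5-FU against TQ, with 3.06%, 6.82% and 4.66% of genes. Requiring 2-fold left 3 with 5-FU, 2 with TQ+5-FU, 1 in TQ+5-FU against 5-FU, 0 in TQ+5-FU against TQ and 2 in TQ against 5-FU, with 0.284% to 4.92% of genes. Without both displaced arrays the counts were 3 with TQ, 7 with TQ+5-FU, 6 in TQ+5-FU against 5-FU, 5 in TQ+5-FU against TQ, 7 in TQ against 5-FU and 3 for the interaction.

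Changes of sign were limited to 22 values of 8 results that were not called. With centred medians EGR1 gave -0.034 in TQ against 5-FU. With the mean of a gene's probe sets NR4A1 gave -0.13 with TQ, NR4A2 0.10 with 5-FU and EGR1 -0.015 in TQ against 5-FU. With array weights IER3 gave -0.016 with TQ, 0.081 in TQ+5-FU against 5-FU and 0.097 for the interaction, and EGR1 gave -0.098 with 5-FU. Without both displaced arrays EGR1 gave -0.091 with 5-FU, IER2 -0.012 in TQ+5-FU against control, and IER3 0.064 in TQ+5-FU against 5-FU and 0.024 for the interaction. Leaving out 1 array at a time, EGR1 ranged from -0.091 to 0.20 with 5-FU and from -0.052 to 0.24 in TQ against 5-FU, IER2 from -0.012 to 0.15 in TQ+5-FU against control and NR4A2 from -0.13 to 0.018 with 5-FU. IER3 ranged from -0.069 to 0.13 with TQ, from -0.15 to 0.14 in TQ+5-FU against 5-FU and from -0.19 to 0.10 for the interaction.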

Other observations

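Other Krüppel-like factor genes were read for 12 of 13. TQ called 0 of them by limma (4 at an unadjusted p under 0.05), while 5-FU and TQ+5-FU each called 1 higher and 1 lower. On the 10 arrays left without the displaced ones, TQ called 3 higher and 3 lower, 5-FU 2 and 4, and TQ+5-FU 3 and 4. Of all genes, 0.267%, 7.29% and 2.63% were called over 12 arrays and 32.4%, 28.3% and 22.7% over these 10. KLF5, a factor of proliferating gut epithelium, rose by 1.73 with 5-FU (adjusted p = 8.6e-05) and by 1.18 with TQ+5-FU (adjusted p = 0.0018). KLF9, a glucocorticoid- and thyroid hormone-responsive gene, fell by 0.61 with 5-FU (adjusted p = 0.045) and by 0.73 with TQ+5-FU (adjusted p = 0.037). KLF10, induced by TGF-β, was higher in TQ+5-FU than in 5-FU by 1.41 (adjusted p = 0.034). It was the only 1 of the 12 called there, and the list median was -0.23, beside -0.065 for all genes.

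Partners of the EGR and NR4A proteins, the corepressors NAB1 and NAB2 and the retinoid X receptors, had all 5 genes read and 0 called by limma in each treatment against control, and 0 had an unadjusted p under 0.05 there. On the 10 arrays left without the displaced ones, TQ called 1 higher and 3 lower, 5-FU 1 and 3, and TQ+5-FU 1 and 1. NAB1 differed by 0.59 with TQ, 0.43 with 5-FU and 0.34 with TQ+5-FU, each with a standard error of 0.64. Of 10 genes for the decay of AU-rich mRNAs, all read, 5-FU called 2 lower. HNRNPD, which encodes AUF1, fell by 0.70 (adjusted p = 0.0088) and ZFP36L1 fell by 0.48 (adjusted p = 0.027). In TQ and TQ+5-FU 0 of the 10 were called, with 2 and 3 at an unadjusted p under 0.05, and on the 10 arrays left without the displaced ones, TQ called 4 higher and 3 lower, 5-FU 1 and 4, and TQ+5-FU 1 and 4. ZFP36, which encodes tristetraprolin, differed by -0.11 with TQ (adjusted p = 0.90).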
